A study of Mus musculus with 9 samples.

Results

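The triggering receptors expressed on myeloid cells and their signalling adaptors were examined as a set of 7 genes, namely the receptors Trem1, Trem2, Trem3, Treml2 and Treml4 and the adaptors Tyrobp and Hcst. The genes were taken by symbol from both deposited tables, where each had 1 row, and they made up 7 of the 46072 genes listed. Expression was measured by RNA sequencing in splenic monocytes of female C57BL/6 mice, aged 8 to 10 weeks per the study's methods, with 3 biological replicates in each of 3 groups. Gavage lasted 6 days in all mice, and the rest after it lasted 6 to 8 days per the labels and 8 days per the study's text on sequencing. Con mice received water, Van mice received a daily 2 mg of vancomycin, a poorly absorbed antibiotic, and the mice of VanLip received the same vancomycin followed by L654, a lipid of gut Bacteroidota and a TLR2 ligand, by the retro-orbital route on days 7, 9 and 11. Neither Con nor Van mice were labelled as receiving lipid, no group received L654 without vancomycin, and no genetic change was named for any group. The study's text on sequencing names injections only for VanLip, while its culture experiments had controls injected with saline (PBS). If Con and Van mice had no injection, its effect cannot be told apart from that of L654. Monocytes were enriched by magnetic negative selection. The methods give 3 mice per group for sequencing, and they describe combining spleens of a cohort under the culture experiments. The 3 comparisons asked how these genes differed after vancomycin, after vancomycin with L654, and between both treated groups.

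TREM receptors are surface proteins of the immunoglobulin family found mainly on monocytes, macrophages, neutrophils and dendritic cells. Most of them have a short tail without a signalling motif and pair with Tyrobp (DAP12), whose phosphorylated activation motif recruits the kinase Syk, while Hcst (DAP10) recruits phosphoinositide 3-kinase. Trem1 is known for amplifying responses to Toll-like receptor ligands, and Trem2, a receptor for lipids, lipoproteins and apoptotic cells, is known for restraining such responses in mouse macrophages. In bulk RNA, fewer cells of a type and less RNA per cell cannot be told apart, and this holds for each difference below.

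The 5 receptor genes lie in 1 cluster on chromosome 17 (GRCm38, GENCODE M21), all on the plus strand and all protein coding. In order along the chromosome they are Trem1 (ENSMUSG00000042265, chr17:48232768-48246924), Trem3 (ENSMUSG00000041754, chr17:48247777-48258841), Treml4 (ENSMUSG00000051682, chr17:48264295-48275360), Treml2 (ENSMUSG00000071068, chr17:48299498-48312533) and Trem2 (ENSMUSG00000023992, chr17:48346401-48354147). The cluster spans 121380 bases from the start of Trem1 to the end of Trem2. The adaptor genes are neighbours on chromosome 7, with Tyrobp (ENSMUSG00000030579, chr7:30413760-30417585) on the plus strand and Hcst (ENSMUSG00000064109, chr7:30417712-30419854) on the minus strand, so that their 3′ ends face each other with 126 bases between them.

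The annotation holds 4 transcripts of Trem2, and 2 of them are used for an assumed split of the values further on. A longer transcript yields more reads per molecule, but which of them were present was not tested. Trem2-201 is the spliced coding transcript of 1088 bases, and Trem2-203 is a transcript of 4784 bases that keeps intron 1 (chr17:48346596-48348456, 1861 bases) and runs 1874 bases further at its 3′ end. The first 2 lines show the last 30 bases of exon 1 in capitals, and the bases that follow them in each transcript in lower case. The last line shows how the retained intron of Trem2-203 ends, with the start of exon 2 in capitals.
Trem2-201, exon 1 joined to exon 2: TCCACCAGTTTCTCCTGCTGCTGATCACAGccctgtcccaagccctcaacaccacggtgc
Trem2-203, exon 1 read into intron 1: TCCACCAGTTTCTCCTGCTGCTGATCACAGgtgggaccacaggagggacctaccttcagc
Trem2-203, end of intron 1 read into exon 2: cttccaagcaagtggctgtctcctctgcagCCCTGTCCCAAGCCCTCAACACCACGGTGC

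Sequencing differed in every comparison that includes VanLip. Total counts were 43070361 to 61383806 per library in Con and Van and 170503470 to 184720704 in VanLip, and the smallest common count corresponded to reads of 100 bases in Con and Van and of 150 bases in VanLip, equal to 16151385 to 23018927 and 42625868 to 46180176 fragments. The labels state 1 read length, of 100 bases, for the whole series, so the longer reads of VanLip are inferred from the counts. Read length and depth thus coincided with the VanLip group and cannot be told apart from it. The monocyte identity of the cells was checked with 13 marker genes, none of which had a mean under 1 FPKM (fragments per kilobase of transcript, relative to all mapped fragments), and Csf1r, the receptor for the monocyte growth factor, was at 528 to 643 FPKM. The neutrophil gene Ly6g was listed at 0 in all 9 libraries, while Csf3r, Cd177 and Mmp8 of the same list were at 82.7 to 110 (Csf3r), 34.0 to 93.9 (Cd177) and 10.5 to 33.8 FPKM (Mmp8). Ncr1 of natural killer cells reached at most 0.145 FPKM, while Klrk1 and Klrd1 of that list were at 4.16 to 13.7 and 3.10 to 5.97 FPKM, and the red pulp macrophage gene C1qa was present at 206 to 340 FPKM.

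All 7 genes were detected in each library, and their levels were compared on the FPKM scale, which is corrected for transcript length. Tyrobp was the most abundant at 1241 ± 67.8 FPKM (SD over the 9 libraries), higher than 99.8% of the genes with a mean FPKM of at least 1. Treml4, a receptor of splenic dendritic cells and macrophages that binds dying cells, came next at 249 ± 27.0 FPKM, followed by Trem1 at 60.9 ± 19.6, Trem3 at 40.4 ± 4.08, Hcst at 15.5 ± 2.55, Trem2 at 10.4 ± 2.67 and Treml2 at 3.02 ± 1.14. Neighbours in this order did not overlap over the libraries, except that the ranges of Trem1 and Trem3 overlapped, as did those of Hcst and Trem2. Treml4 alone made up 63.7% to 74.97% of the summed FPKM of the 5 receptors, against 10.8% to 24.2% for Trem1 and 1.61% to 4.25% for Trem2. Tyrobp FPKM was 2.603 to 3.97 times the receptor sum and 62.8 to 93.0 times that of Hcst. The other adaptor with the same kind of motif, Fcer1g, was at 814 ± 65.6 FPKM. Treml1, the platelet member of the cluster, was at 0.305 to 1.19 FPKM.

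**Figure D1:**
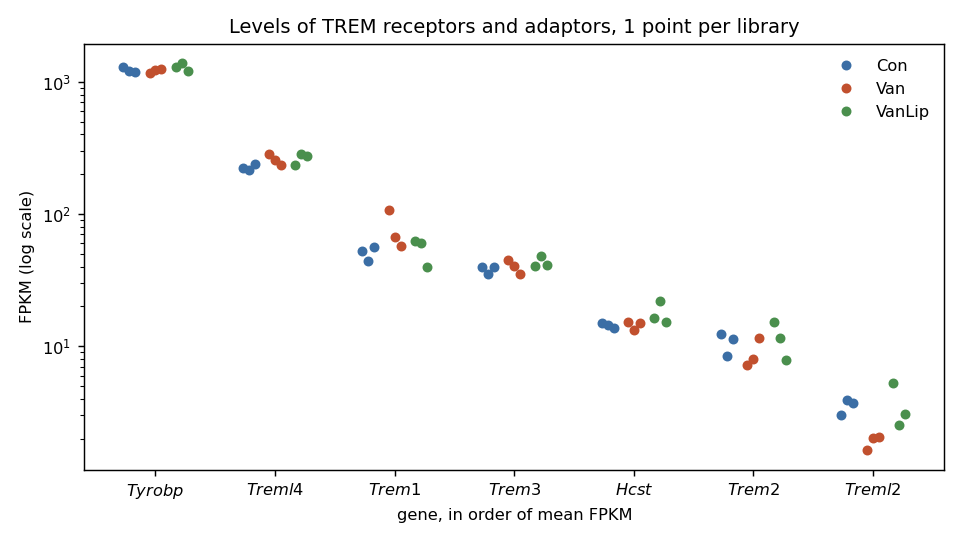
FPKM (log scale) of each gene in each of the 9 libraries, with genes in order of mean FPKM and points coloured by group. Tyrobp lies above 1157 FPKM in every library and Treml2 below 5.25 FPKM, and the points of Trem1, Trem2 and Treml2 are the most scattered.

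Of the 7 genes, Treml2 was the one that changed between groups, being lower after vancomycin than after water and higher after vancomycin with L654 than after vancomycin alone. Treml2 (TLT-2) is a family member of B cells, macrophages and neutrophils that, unlike the others, is not known to signal through Tyrobp. Counts normalized for library size, which are compared between libraries of 1 gene, were 1311, 1696 and 1589 in Con, 710, 854 and 886 in Van, and 2265, 1068 and 1309 in VanLip. The 3 Van libraries lay below all others, and VanLip 1 lay above all others while VanLip 2 and VanLip 3 were under the lowest Con value. Van also lay below all other libraries in FPKM, at 1.64 to 2.06 against 3.01 to 3.90 in Con and 2.53 to 5.25 in VanLip, where VanLip 3 was inside the Con range.

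With DESeq2, Treml2 fell by 0.91 on the log2 scale in Van against Con (SE 0.24, DESeq2 adjusted p = 0.00688), which is 0.533 of the Con level. It was the only 1 of the 7 genes with an adjusted p at or below 0.05, where 4.33% of all genes tested were called, 2.27% as higher and 2.06% as lower. It rose by 0.92 in VanLip against Van (SE 0.24, DESeq2 adjusted p = 0.00237), again as the only 1 of the 7, against 9.85% of all genes called, 4.58% as higher and 5.27% as lower. Both comparisons use the same Van libraries, and 1.10% of the genes tested were called lower in the first and higher in the second. VanLip against Con gave a log2 difference of 0.01 with a 95% interval of -0.45 to 0.48 (DESeq2 adjusted p = 0.985), and 0 of the 7 genes were called there, against 6.67% of all genes, 2.98% as higher and 3.69% as lower (1 member at an unadjusted p under 0.05, 0 by edgeR). In the test for any difference among the 3 groups Treml2 was also the only 1 called (DESeq2 likelihood-ratio adjusted p = 0.00195), against 13.5% of all genes.

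The Treml2 calls depended on the test. With edgeR's quasi-likelihood test the log2 differences were -0.91 and 0.93 but the adjusted p-values were 0.119 and 0.0592, and with limma on log2 FPKM they were 0.174 to 0.317 and 0.105 to 0.228. The Van against Con call also ended without Con 2 (adjusted p = 0.0535) or Con 3 (adjusted p = 0.0533), while without VanLip 1 the VanLip against Van difference dropped to 0.54 and that of VanLip against Con to -0.37 (DESeq2 adjusted p = 0.0157 and 0.187). With the VanLip fragments thinned to the depth of the other libraries, the VanLip against Van difference was 0.91 (DESeq2 adjusted p = 0.0057).

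**Figure D2:**
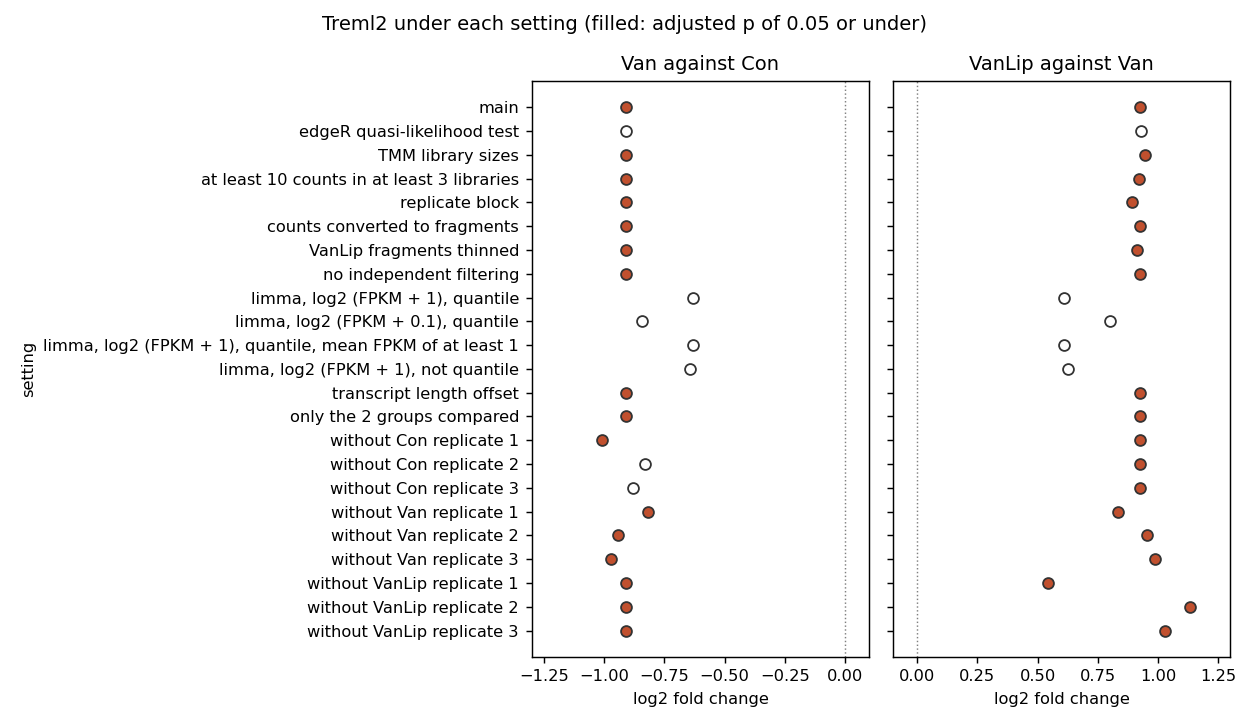
Log2 fold change of Treml2 in Van against Con (left) and VanLip against Van (right) under the reported test, in the top row, and under each alternative setting, with filled points where the adjusted p was 0.05 or under. All points keep their side of 0, and the open points belong to edgeR, limma and, on the left, the fits without Con replicate 2 or Con replicate 3.

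Markers of other cells and of monocyte subsets were set beside Treml2. Of 8 classical monocyte markers, none at 0, 1 fell and 1 rose in Van against Con (4.33% of all genes called) and 2 rose in VanLip against Van (9.85% of all genes called), and their summed FPKM was 1326 to 1642 in Con, 1111 to 1984 in Van and 1654 to 2830 in VanLip. The median log2 difference of the 8 was 0.09 in Van against Con and 0.39 in VanLip against Van. The marker that fell in Van against Con was Ccr2, the receptor that brings classical monocytes out of the bone marrow, and the one that rose was Vcan, a matrix proteoglycan, by 1.54 on the log2 scale (DESeq2 adjusted p = 0.0123). Both were picked out here after their values were seen. Ccr2 normalized counts were 54556 to 60611 in Con, 25361 to 37846 in Van and 53107 to 89509 in VanLip, with the highest value in VanLip 1, and it fell by 0.83 in Van against Con and rose by 1.04 in VanLip against Van (DESeq2 adjusted p = 0.00048 and 7.38e-07). Against the same shares, of all 13 monocyte markers, which share members with the subset lists, 1 fell in Van against Con and 4 rose in VanLip against Van. Of 8 nonclassical monocyte markers, 0 were called in Van against Con, and in VanLip against Van 2 rose (Cx3cr1 by 0.43 and Eno3 by 0.60) and 1, Fcgr4, fell by 0.48, with summed FPKM of 2564 to 2959 in Con, 2550 to 3466 in Van and 2412 to 3249 in VanLip. Of the 11 neutrophil markers with an adjusted p, out of 12, Csf3r rose by 0.22 and Retnlg, at 3.93 to 91.1 normalized counts over Con and Van, fell by 2.605 in Van against Con (DESeq2 adjusted p = 0.0475 and 0.0225), and 0 were called in VanLip against Van, with sums of 160 to 174 FPKM in Con, 148 to 199.8 in Van and 155 to 230 in VanLip. Of 8 B cell markers, again beside 4.33% and 9.85% of all genes, 1 fell in Van against Con and 0 were called in VanLip against Van, with a summed FPKM of 336 to 394 in Con, 251 to 277 in Van and 258 to 321 in VanLip, nearly all of it Ighm, the immunoglobulin heavy chain. Of 12 splenic macrophage markers, 1 rose in Van against Con and 1 fell in VanLip against Van, with sums of 1508 to 1821, 1797 to 2374 and 1637 to 1959 FPKM, again beside 4.33% and 9.85% of all genes. Of 10 conventional dendritic cell markers, none at 0, 2 fell in Van against Con and 1 rose in VanLip against Van, beside the same shares, with sums of 205 to 229 FPKM in Con, 189 to 218 in Van and 181 to 226 in VanLip. Those called, picked out after their values were seen, were Clec9a, a receptor for dead cells, which fell by 1.12 and rose by 0.67 in these comparisons (DESeq2 adjusted p = 1.55e-05 and 0.0164), and the chemokine receptor Xcr1, which fell by 0.85 in Van against Con (DESeq2 adjusted p = 0.00898). The part of these cells in the Treml2 result was not tested.

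Trem2 was not called in any comparison, and its values spread widely within the treated groups. Normalized counts were 1473, 1565 and 1477 in Con, 914, 1097 and 1379 in Van, and 2630, 1526 and 1032 in VanLip. Con libraries lay close together and above each Van library, whereas VanLip covered the range from inside Van to far above Con. The log2 difference was -0.41 in Van against Con (SE 0.27, DESeq2 adjusted p = 0.516), 0.61 in VanLip against Van (SE 0.27, DESeq2 adjusted p = 0.133, unadjusted p = 0.0208) and 0.20 in VanLip against Con (SE 0.27, DESeq2 adjusted p = 0.768). The 95% interval, not adjusted for the number of genes, reached from -0.94 to 0.11 for the first and from 0.09 to 1.13 for the second, so that the first included 0 and the second did not. Single libraries moved these values. Without VanLip 3 the difference of VanLip from Van was 0.88 and was called (DESeq2 adjusted p = 0.00213), and without VanLip 1 it was 0.18 and that from Con was -0.24, with neither called.

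The SD of the log2 normalized count of Trem2 was 0.05 in Con, 0.30 in Van and 0.68 in VanLip. Over the 9410 genes whose mean normalized count reached 500, the median SD in VanLip was 0.11, and 1.07% of genes had one at least as large as Trem2. That share was 80% in Con and 4.38% in Van. Such a spread was not particular to Trem2, as Treml2 had an SD of 0.56 in VanLip, reached by 1.71% of genes. The highest Trem2 value in VanLip was 2.55 times the lowest. VanLip 1, the library with the highest Trem2 and Treml2 values, also had the highest summed FPKM of the classical monocyte markers, at 2830 against 1654 and 1815 in the other VanLip libraries, and of 12 neutrophil markers, at 230 against 155 and 171. Its sums were the lowest in VanLip for splenic macrophage markers, at 1637 against 1837 and 1959, and for nonclassical monocyte markers, at 2412 against 3249 and 2740. Nearly all of the neutrophil sum in VanLip 1 was Csf3r (95.4 FPKM), Cd177 (93.9) and Mmp8 (33.8), and Ly6g was listed at 0. The granule genes did not move 1 way among the VanLip libraries. In VanLip 1, S100a8 and S100a9 were lower, at 1.76 and 0.832 FPKM, than in the other VanLip libraries, at 2.00 to 2.54 and 0.991 to 1.70, while Lcn2 and Camp were higher, at 3.37 and 0.118 FPKM against 0.932 to 1.45 and 0.0246 to 0.106. The part of these cells in the Trem2 spread was not tested.

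**Figure D3:**
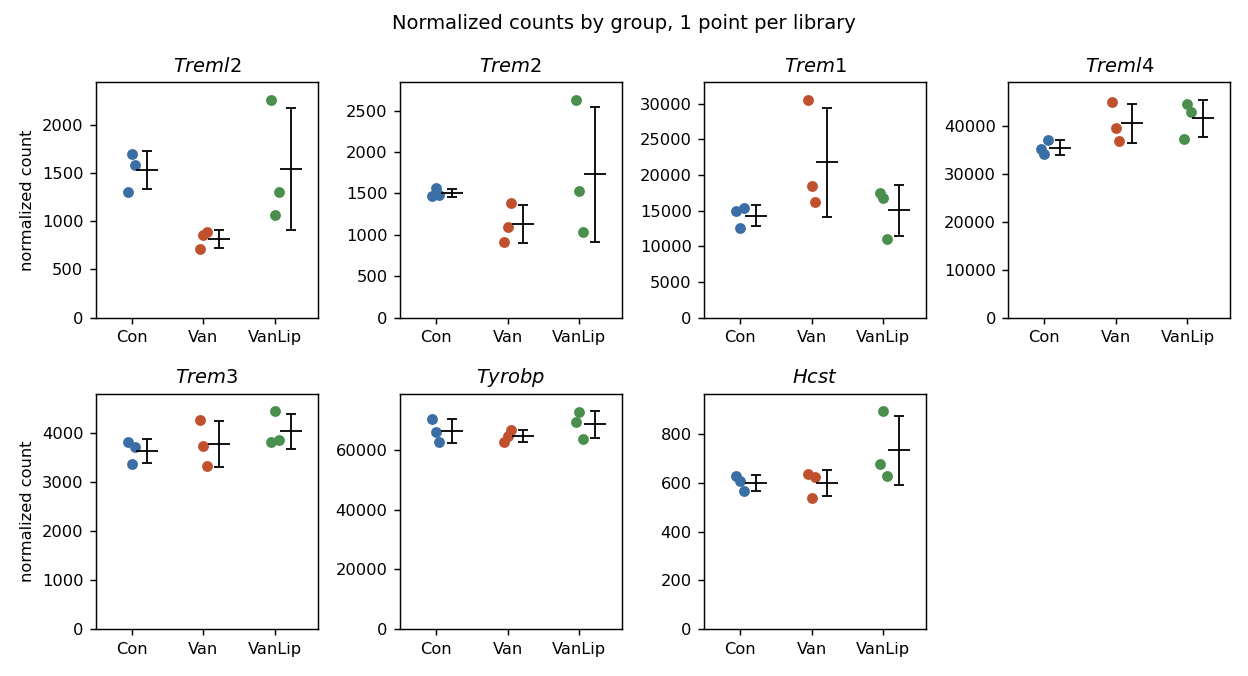
Normalized counts of the 7 genes by group, with 1 point per library and, to the right of the points, the mean with its SD (n = 3). Van points of Treml2 lie under all Con and VanLip points, Trem2 reaches from 1032 to 2630 in VanLip, and Trem1 has 1 high Van library at 30575.

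The spread of Trem2 looked different in FPKM, where the Con libraries were at 12.5, 8.44 and 11.4, the Van libraries at 7.16, 8.00 and 11.5, and the VanLip libraries at 15.2, 11.5 and 7.83. On this scale Con 2 was the lowest Con library, although it had the highest Con count, and Con and Van overlapped. The SD of log2 (FPKM + 1) of Trem2 was 0.27 in Con, 0.32 in Van and 0.44 in VanLip. For Treml2 it was 0.16 in Con, 0.12 in Van and 0.43 in VanLip. A count and an FPKM value of 1 gene differ by the transcript length, and the mean transcript length that the tables imply was 1221, 1923 and 1375 bases in Con, 1328, 1469 and 1253 in Van, and 1811, 1416 and 1395 in VanLip. Con 2 and VanLip 1 thus stood out with long implied Trem2 lengths, and the longest mean was 1.57 times the shortest. No reads were examined, so which transcripts were present was not tested. Of 9777 genes with a mean scaled count of at least 500, 0.665% had a ratio at least as large, and the median ratio was 1.03. These genes include those with 1 transcript, whose ratio cannot vary, so the share would differ among genes with several transcripts.

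The implied length of the other members varied little or not at all. The ratio was 1.02 for Trem1 and 1.01 for Treml4, and the length was constant for Trem3, Treml2, Tyrobp and Hcst. A gene quantified with 1 transcript can only give a constant length, so the constant lengths are no comparison for Trem2. The constant Treml2 length of 4509 bases exceeded the longest Treml2 transcript of GENCODE M21, at 3983 bases. The constant Hcst length of 437 bases matched none of its M21 transcripts, of 442, 428 and 366 bases. The gene models behind the tables thus differed from M21 for at least these genes, and how they differed for Trem2 was not tested. Trem2 lengths can therefore be read against M21 transcripts only approximately. If the reads had come only from Trem2-201 and the intron-retaining Trem2-203 shown above, the latter would have given 56.2% of the Trem2 count in Con 2 and 51.7% in VanLip 1, and 14.1% to 33.5% in the other 7 libraries. The FPKM of the short transcript would then have been 9.69 ± 2.83 (SD, n = 3) in Con, 8.29 ± 2.36 in the Van libraries and 9.96 ± 2.55 in the VanLip libraries, with differences between groups smaller than the SD within them. With a transcript length offset in the model, an alternative chosen after seeing the data, the log2 differences of Trem2 shrank to -0.29 in Van against Con and 0.37 in VanLip against Van (DESeq2 adjusted p = 0.702 and 0.408).

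**Figure D4:**
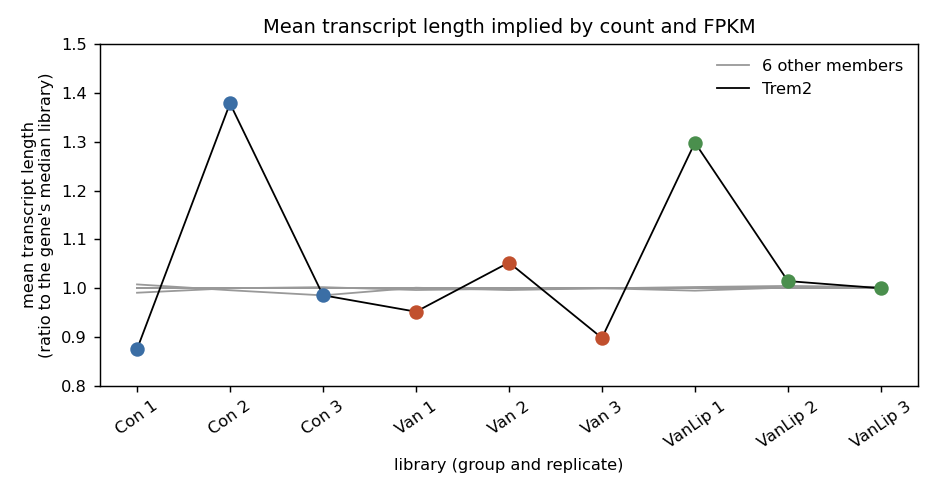
Mean transcript length implied by the count and the FPKM of each gene, as a ratio to the median library of that gene, for Trem2 (coloured points) and the 6 other members (grey lines) in the 9 libraries. Trem2 rises in Con 2 and VanLip 1, at 1923 and 1811 bases, while the grey lines stay near 1. A grey line cannot move for a gene quantified with 1 transcript.

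Trem1, the amplifying receptor of monocytes and neutrophils, was not called either. Its normalized counts were 15018, 12577 and 15361 in Con, 30575, 18506 and 16271 in Van, and 17520, 16762 and 10989 in VanLip. Each Van library was above each Con library, mainly through Van 1, and VanLip overlapped both groups. The log2 difference was 0.61 in Van against Con (SE 0.30, DESeq2 adjusted p = 0.305, unadjusted p = 0.0422) and -0.53 in VanLip against Van (SE 0.30, DESeq2 adjusted p = 0.305). Without Van 3, the lowest Van library, the differences became 0.78 and -0.70 (DESeq2 adjusted p = 0.0191 and 0.0217), and without Van 1, the highest, they were 0.28 and -0.20. Without VanLip 3 the difference of VanLip against Van was -0.35, and Trem1 was not called in this fit or in that without Van 1. Van 1 also had the highest summed FPKM of 8 nonclassical monocyte markers, at 3466 against 2412 to 3249 in the 8 other libraries, and the lowest sum of classical markers, at 1111. The part of these cells in the Trem1 values was not tested.

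Treml4, known for strengthening TLR7 responses, moved little. Normalized counts were 35143, 34239 and 37142 in Con, 45066, 39657 and 36982 in Van, and 37333, 44664 and 42978 in VanLip. Each VanLip library was above each Con library, with a narrow gap between 37142 and 37333. The log2 difference was 0.23 in VanLip against Con (SE 0.10, DESeq2 adjusted p = 0.14, unadjusted p = 0.0164), 0.19 in Van against Con (SE 0.10, DESeq2 adjusted p = 0.318) and 0.04 in VanLip against Van (DESeq2 adjusted p = 0.899). Without VanLip 1 the first of these was 0.30 (DESeq2 adjusted p = 0.0249), and without Van 1 the second was 0.11.

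Trem3, an activating mouse receptor that pairs with Tyrobp, had normalized counts of 3360 to 3820 in Con, 3325 to 4273 in Van and 3817 to 4450 in VanLip. Its groups overlapped, and its log2 differences of 0.06, 0.15 and 0.10 in the 3 comparisons came with 95% intervals between -0.16 and 0.37.

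Over the 7 genes, the groups did not overlap for 3 in Van against Con (Trem1 higher, Trem2 and Treml2 lower), against 24.1% of all genes whose mean normalized count reached 50. They did not overlap for 1 in VanLip against Con (Treml4), against 24.5%, and for 1 in VanLip against Van (Treml2), against 28.6%. The median log2 differences of the set were 0.00, 0.15 and 0.10, beside -0.01, 0.01 and 0.01 over all genes tested.

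**Figure D5:**
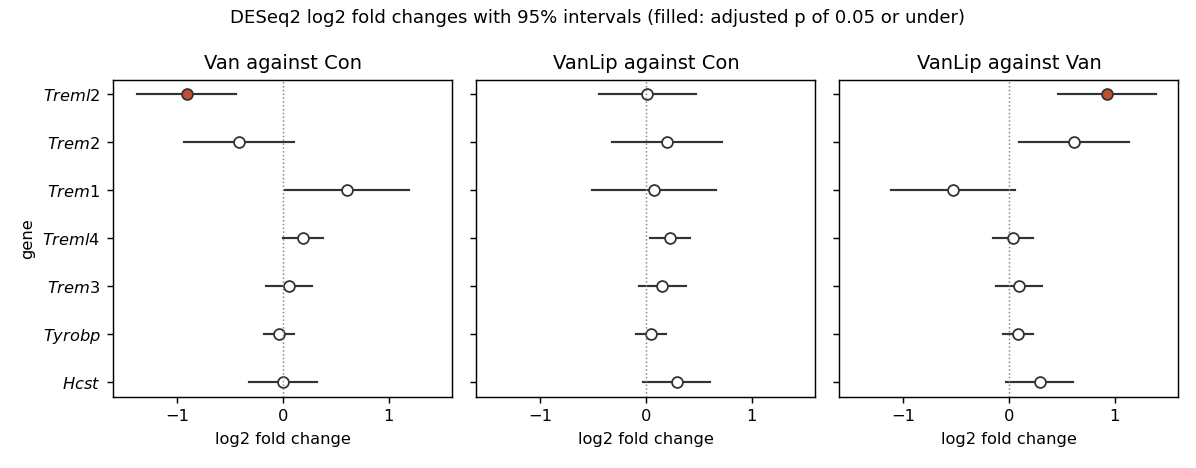
Log2 fold change of each gene with its 95% interval in the 3 comparisons, from DESeq2, with filled points at an adjusted p of 0.05 or under. Treml2 is filled in Van against Con and in VanLip against Van, and the intervals of Tyrobp are the narrowest.

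The adaptors were not called in any comparison. Normalized counts of Tyrobp were 70592, 65968 and 62777 in Con, 62790, 64757 and 66692 in Van, and 69436, 72663 and 63822 in VanLip, and the 3 groups overlapped. Its log2 differences were -0.04 in Van against Con, 0.05 in VanLip against Con and 0.08 in VanLip against Van (SE 0.07 each, DESeq2 adjusted p = 0.922, 0.815 and 0.584). The 95% intervals lay between -0.18 and 0.23, so differences beyond those bounds were outside the error of this test. Hcst, the smaller adaptor, which also serves the natural killer receptor Klrk1, was at 628, 607 and 566 in Con, 639, 540 and 624 in Van, and 680, 896 and 628 in VanLip. Hcst was highest in VanLip 2, with log2 differences of 0.00 in Van against Con and 0.29 in VanLip against Con and against Van (SE 0.16 each for VanLip, DESeq2 adjusted p = 0.327 and 0.298). Without VanLip 2 both of the latter were 0.12. Fcer1g differed by 0.07, 0.11 and 0.04 on the log2 scale (DESeq2 adjusted p = 0.848, 0.60 and 0.904).

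Of 18 other receptors known to use Tyrobp or Hcst, 0 rose and 2 fell among the 16 with an adjusted p in Van against Con, where 4.33% of all genes tested were called. Klrk1 (NKG2D) fell by 0.91, from 1976 to 3059 normalized counts in Con to 1117 to 1666 in Van (DESeq2 adjusted p = 0.000471), and it stayed 0.74 lower in VanLip against Con, where it was the 1 receptor of 15 called, beside 6.67% of all genes. Siglech, a plasmacytoid dendritic cell receptor, was low, at 232 to 300 in Con, 116 to 188 in Van and 193 to 337 in VanLip, and it fell by 0.89 in Van and rose by 0.85 in VanLip against Van (DESeq2 adjusted p = 0.0475 and 0.03). In VanLip against Van, where 9.85% of all genes were called, 1 of 16 rose and 2 fell. Sirpb1b, an activating receptor of the signal regulatory protein family, fell by 0.27 and Plxna1, a semaphorin receptor that associates with Trem2 and Tyrobp, fell by 0.42 (DESeq2 adjusted p = 0.00548 and 0.0271). The defining natural killer marker Ncr1 was at or near 0, and 8 of the 10 natural killer markers had a mean under 1 FPKM. The summed FPKM of these 10 was 14.1 to 20.5 in Con, 7.66 to 12.6 in Van and 9.72 to 13.2 in VanLip, most of it Klrk1 itself. Of the other adaptors with an activation motif, Cd247 fell by 1.22 in Van against Con at 35.4 to 161 normalized counts over both groups (DESeq2 adjusted p = 0.0461), and Fcer1g was not called.

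Among 37 kinases and other positive signalling genes downstream of these adaptors, 2 rose and 0 fell in Van against Con, and 1 rose and 5 fell in VanLip against Van, where 4.33% and 9.85% of all genes tested were called. Syk, the kinase that binds phosphorylated Tyrobp, was at 53661, 58797 and 55662 normalized counts in Con, 77740, 72632 and 68861 in Van, and 58038, 45011 and 51039 in VanLip. The Van libraries were above all others, and Syk rose by 0.38 in Van against Con and fell by 0.51 in VanLip against Van (DESeq2 adjusted p = 0.0052 and 1.2e-05). Pik3r1, the regulatory subunit of phosphoinositide 3-kinase, rose by 0.35 and fell by 0.46 in the same comparisons (DESeq2 adjusted p = 0.0009 and 4.45e-07), with Van again above all other libraries at 9891 to 10564 against 6776 to 8294. In VanLip against Van, Sos1, a Ras exchange factor, fell by 0.33, the catalytic subunit Pik3ca by 0.21 and the Src-family kinase Lyn by 0.17, while Lat2, a linker that Syk phosphorylates, rose by 0.39. Sos1 was the 1 member of this list called in VanLip against Con, where it fell by 0.25 and 6.67% of all genes were called. The list medians were 0.03, -0.01 and 0.01 in the 3 comparisons, near those of all genes.

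Of 17 negative signalling genes, 1 rose in Van against Con, 2 rose and 1 fell in VanLip against Con, and 3 rose and 2 fell in VanLip against Van, where 4.33%, 6.67% and 9.85% of all genes tested were called. The 3 that rose in VanLip against Van were the phosphatases Ptpn6 (SHP-1), by 0.44, Ptpn11 (SHP-2), by 0.45, and Ptpn22, by 0.37 (DESeq2 adjusted p = 6.61e-08, 3.33e-06 and 1.21e-05). Ptpn6 was at 48482 to 51716 normalized counts in Con, 44725 to 44847 in Van and 55267 to 63648 in VanLip, with no overlap between any of the groups, and it was 0.29 higher in VanLip than in Con. The ubiquitin ligase Cbl fell by 0.25 in VanLip against Van and by 0.27 in VanLip against Con (DESeq2 adjusted p = 0.0199 and 0.0118). The docking protein Dok1 rose by 0.36 in VanLip against Con (DESeq2 adjusted p = 0.0498), and Sla, an adaptor that promotes receptor turnover, rose by 0.47 in Van against Con (DESeq2 adjusted p = 0.0224).

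Of 12 ligands and sheddases, 11 had an adjusted p, and 1 rose in Van against Con, where 4.33% of all genes tested were called. That gene was Hspd1, a mitochondrial chaperone described as a Trem2 ligand, which rose by 0.43 in Van and fell by 0.45 in VanLip against Van (DESeq2 adjusted p = 0.000792 and 0.000159), with Van at 8273 to 8872 normalized counts and all other libraries at 5753 to 7183. Mmp9, a protease that can shed surface receptors, was 1.61 lower in VanLip than in Con at 16.5 to 84.1 normalized counts (DESeq2 adjusted p = 0.0188).

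Likeness between genes was described by the correlation of log2 (normalized count + 1) over the 9 libraries, which share groups and, within VanLip, read length and depth, among 13503 genes whose mean normalized count reached 50. Within the set, Trem3 and Treml4 had a Pearson r of 0.81 (Spearman rho = 0.77), Trem2 and Treml2 of 0.80 (rho = 0.82) and the adaptors of 0.73 (rho = 0.57). The genes most like Treml2 were Hacd4 (r = 0.99), Cd84 (r = 0.97), a receptor of the SLAM family, and Fam76b (r = 0.97). Cd84 normalized counts were 12164 to 13036 in Con, 8130 to 10235 in Van and 10659 to 15314 in VanLip. Their likeness to the Treml2 pattern follows from the choice of Cd84 by its correlation. For Trem2 they were Mgst1 (r = 0.97), a microsomal glutathione transferase, Hopx (r = 0.95), Gmfg, Slc25a12 and Unc119b (r = 0.94 each). Hopx, likewise chosen by its correlation with Trem2, had 8686, 4903 and 3521 normalized counts in VanLip. Trem1 was most like Gltscr1 (r = 0.96), Gfod1 (r = 0.94) and Id2 (r = 0.93), Trem3 like Krt80 (r = 0.97), Slc10a3 and Tjp3 (r = 0.94 each), and Treml4 like Abi3 and Vasp (r = 0.98 each) and Cbx7 (r = 0.94). Tyrobp was most like Tmem147 (r = 0.96), Cox6c and Fh1 (r = 0.94 each), and Hcst like Gm6758 and Gm26384 (r = 0.96 each) and Rpl17-ps4 (r = 0.95).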

How the data were processed

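Per the labels, paired reads of polyA RNA from 9 libraries were aligned by the authors to GRCm38 with HISAT2 2.2.1 and SAMtools 1.9, and the authors estimated and deposited FPKM per gene with StringTie 2.1.3. The authors also deposited expected counts, which they derived from the StringTie output with tximport, and which are neither whole nor normalized. The annotation release was not given in the sources used here. Expected counts were rounded and tested with the 2-sided Wald test of DESeq2 1.42.0 in R 4.3.3, using median-of-ratios scaling, 1 fit of all 9 libraries, group as the only term and Benjamini-Hochberg adjustment over all genes tested (26108 genes had a count). Any difference among groups was tested with the likelihood-ratio test. Levels of different genes were compared in FPKM. The 7 genes, the pathway and marker lists and the tests were chosen with earlier results of these data known. Genes named were the 7, members of the pathway lists at an adjusted p of 0.05 or under, a few fixed markers and Fcer1g. The 5 (Trem2) or 3 (others) genes with the highest Pearson r were also named. Further genes of the marker lists, such as Ccr2, Vcan, Cd177 and Mmp8, were named after their values were seen. Mean transcript length was the ratio of count to FPKM, scaled with 826 genes that have 1 transcript. Coordinates and sequences came from GENCODE M21 on GRCm38. Alternatives used edgeR 4.0.16, limma 3.58.1 on log2 (FPKM + 1) or log2 (FPKM + 0.1), other filters, library sizes and depths, a replicate block, and each library left out. The fits were tested on simulated data. Values of some single list genes are not reported here. Replicates were separate biological replicates per the labels. The depth (16151385 to 46180176 fragments) limits counting error only, and precision was set by 3 replicates per group.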

Additional observations from a re-analysis of the deposited data

How the results depend on the processing

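The 3 DESeq2 comparisons called 803 genes (Van against Con), 1105 (VanLip against Con) and 1777 (VanLip against Van). These counts were 204, 300 and 855 with edgeR, 92, 237 and 688 with limma on quantile-normalized log2 (FPKM + 1), 17, 168 and 516 with log2 (FPKM + 0.1), 90, 339 and 829 over genes whose mean FPKM reached 1, and 78, 261 and 718 without quantile normalization, and 425 to 913, 606 to 1272 and 1139 to 1666 with 1 library left out. The count of called members went from 1 to 0 under edgeR and each limma setting in Van against Con, in VanLip against Van and for any difference, and with 1 library left out it was 0 to 2, 0 to 1 and 1 to 2 in the 3 comparisons and 1 to 2 for any difference. Treml2 kept its direction under all 22 alternatives in Van against Con (-1.01 to -0.63, called in 15) and in VanLip against Van (0.54 to 1.13, called in 17). The SD of Trem2 in VanLip was 0.678 in log2 normalized counts and 0.438 in log2 (FPKM + 1). Small differences that changed sign were those of Treml2 in VanLip against Con (-0.0174 with the replicate block, -0.0232, -0.0413, -0.023 and -0.0163 under limma, -0.37 to 0.22 with 1 library left out), Treml4 in VanLip against Van (-0.0037 under each of the 3 quantile-normalized limma settings, -0.0232 to 0.12), Tyrobp in Van against Con (0.051 under those 3, -0.0762 to 0.0076) and Hcst in Van against Con (-0.0018, -0.0020 and -0.0018 under those 3, -0.0457 to 0.072). With 1 library left out, Trem1 and Trem2 in VanLip against Con ranged from -0.0455 to 0.26 and -0.24 to 0.47, and Trem3 in Van against Con from -0.0384 to 0.14. The causes were not tested, except that leaving out a library leaves fewer samples. Replicate numbers did not pair the libraries, since deviations of same-numbered libraries correlated at -0.07 to 0.12. With the replicate block 932, 1146 and 1644 genes were called, and the members called were the same in number, at 1, 0 and 1. The planned mean over several entries of a symbol gave no other value because each symbol had 1 entry.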
